A study of Mus musculus with 2 samples.

Results

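The genes described here are the mouse RING finger genes named Rnf, and the question is where the transcription factor HLF (hepatic leukemia factor, of the PAR bZIP family) was found near them. Members were taken by symbol: every protein-coding RefSeq gene of mm10 (assembly GRCm38.p6) called Rnf followed directly by a digit, which gave 83 of 21900 coding genes. Anti-FLAG chromatin immunoprecipitation with sequencing was carried out on wild-type mouse LSK cells, the lineage-negative, Sca-1-positive, c-Kit-positive gate of hematopoietic stem and progenitor cells. The FLAG-HLF cells carried a retrovirus encoding FLAG-tagged Hlf together with GFP, and the GFP-ctrl cells carried a GFP virus. For each arm 80000 cells were infected and kept for 5 days in 1 medium that contained IL-3, IL-7, SCF and Flt3 ligand, so the bound factor was the one supplied by the virus and not the endogenous protein. There was 1 library per arm. The FLAG-HLF peak list was analysed and the GFP-ctrl library was not analysed here, so the values below lack replicates and a background from control cells. The cells' identity after culture could not be checked against markers, because a peak list holds no expression.

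The FLAG-HLF list holds 3153 peaks, all 400 bases wide, with no height, enrichment or significance, so read depth is unknown. A peak went to the coding gene that holds its centre, or failing that to the one whose end was nearest within 100 kb. In this way 2994 peaks found a gene. The Rnf genes were chosen by symbol, but those described in full were selected on the positions of these same peaks, and the gene family was picked with the peak list known. Counts and distances are therefore a description, without tests. Genes and peaks of 1 list are not replicates, and the intervals below (95%, exact Clopper-Pearson) cover counting error only.

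RING finger proteins are E3 ubiquitin ligases or partners of such ligases. The RING is a zinc-binding fold that docks a ubiquitin-loaded E2 enzyme and brings it to a substrate, which is thereby marked for degradation, relocation or signalling. The symbol Rnf gathers unrelated branches: RBR ligases, which pass ubiquitin through a cysteine of their own, PA-TM-RING ligases, which sit in membranes with a protease-associated domain on the outer or lumenal side, chromatin-bound ligases of the DNA damage response, and others. In blood cells, ubiquitin ligases tune cytokine receptors, cell death and DNA repair. Protein sequences were not used here, so the RING fold of the members rests on their names.

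Promoter sequences are shown for the pair of Rnf genes whose start lay closest to a peak, because they are the only members with a peak within 1 kb of an end. They are the RefSeq windows from 250 bases before to 50 bases after a listed start (GRCm38.p6), printed 5′ to 3′ on the strand of the gene. Capitals mark a C/EBP-type word.
Rnf149 promoter, chr1:39577298-39577597, minus strand: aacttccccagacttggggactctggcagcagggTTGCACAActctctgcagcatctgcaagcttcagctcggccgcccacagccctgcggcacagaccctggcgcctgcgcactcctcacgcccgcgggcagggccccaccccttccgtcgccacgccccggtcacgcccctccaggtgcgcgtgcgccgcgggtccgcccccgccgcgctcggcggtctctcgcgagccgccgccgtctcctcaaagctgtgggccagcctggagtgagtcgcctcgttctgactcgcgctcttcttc
Rnf13 promoter, chr3:57735807-57736106, plus strand: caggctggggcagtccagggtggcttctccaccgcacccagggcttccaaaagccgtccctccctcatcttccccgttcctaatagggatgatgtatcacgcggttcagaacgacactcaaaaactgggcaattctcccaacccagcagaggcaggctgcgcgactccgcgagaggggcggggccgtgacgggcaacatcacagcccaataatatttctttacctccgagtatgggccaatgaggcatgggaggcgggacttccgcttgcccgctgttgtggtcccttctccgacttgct

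The peak at Rnf149 (chr1:39577352-39577751) covered 246 of these 300 bases, and the word TTGCACAA (chr1:39577556-39577563) lay 5 bases from the peak centre and began 216 bases before the listed start. Rnf149 was the only Rnf gene with a listed promoter that a peak overlapped, 1 of 84 promoters (1.19%), against 227 of 32851 promoters in the whole table (0.691%). The peak at Rnf13 (chr3:57735397-57735796) ended just upstream, with 10 bases between it and the printed window. Its promoter held none of the words searched. Both windows are rich in G and C, at 71.3% for Rnf149 and 59.7% for Rnf13.

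The words searched were the PAR bZIP words TTACGTAA and TTATGTAA and, as an added search after the data were seen, the C/EBP-type words TTGCGCAA, TTGCACAA and TTGCATAA, each on both strands. None of the 84 Rnf promoters, from 66 of the 83 genes, held a PAR bZIP word, against 1.06% of all 32851 promoters. A C/EBP-type word occurred in 1 Rnf promoter (1.19%), that of Rnf149, against 1.91% of all promoters. At the shares of all promoters, few or none of 84 would hold either kind of word, so these counts do not set Rnf promoters apart. Only 21263 of the 32851 promoters belong to coding genes, and neither words nor peaks were counted over these alone. The median G and C content was 52.7% over all 32851 promoters and 60.3% over the Rnf promoters, so the 2 sets differ in composition. Among the 227 promoters overlapped by a peak anywhere, 6.61% held a PAR bZIP word and 14.5% a C/EBP-type word. The peaks away from promoters could not be searched, since no genome sequence was used here.

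Of the 83 Rnf genes, 17 were given a peak (20.5%, 95% interval 12.4 to 30.8%), against 2420 of 21900 coding genes (11.1%, 10.6 to 11.5%). The gap was wider in the first 1576 lines of the list, whose order is not explained. There 16.9% of Rnf genes had a peak, against 6.11% of coding genes, while in the later 1577 lines the shares were 7.23 and 6.15%. The 17 genes took 25 peaks on 11 chromosomes. Rnf24 and Rnf169 had 3 peaks each, Rnf43, Rnf180, Rnf216 and Rnf217 had 2 each, and the other 11 genes had 1 each. Thus 6 Rnf genes (7.23%) had 2 or more peaks, against 2.06% of coding genes, and 2 (2.41%) had 3 or more, against 0.443%. None of the 25 peaks was held by more than 1 coding gene, and only 23 of all 2994 assigned peaks were. The remaining 66 Rnf genes had no peak, among them the 3 on the X chromosome.

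Peaks of Rnf genes lay mostly inside the gene and far from its ends. The gene held 18 of the 25 centres (72%, 50.6 to 87.9%), against 58.2% of all assigned peaks. The median distance to the nearest gene end was 23.2 kb for Rnf peaks and 12.8 kb for all assigned peaks. Within 1 kb of an end there were 2 of 25 (8%, 0.984 to 26%), against 11.2% of all assigned peaks. At 20 to 100 kb there were 13 (52%, 31.3 to 72.2%), against 34.5%. Each of these Rnf intervals includes the share of all assigned peaks.

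**Figure D1:**
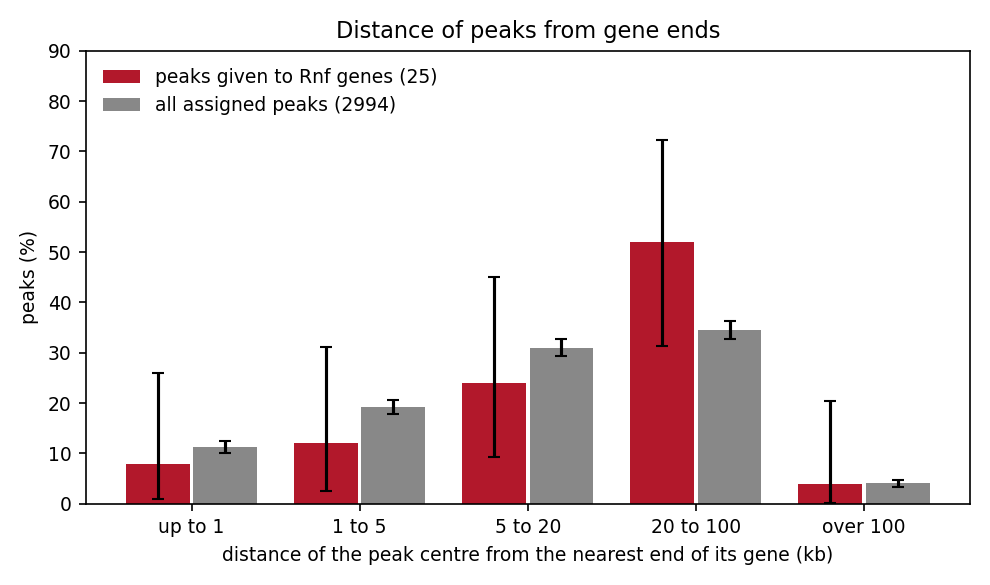
Share of peaks (%) by distance of the peak centre from the nearest end of its gene (kb), for the 25 peaks given to Rnf genes (left bars) and all 2994 assigned peaks (right bars). Error bars are 95% exact intervals. The bar for 20 to 100 kb is the tallest of the Rnf peaks, at 52% against 34.5%, and the Rnf intervals are wide at every distance.

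The promoter table gives the strand of 16 of the 17 genes, all but Rnf150, so that starts and stops can be told apart for them. All 7 peaks outside an Rnf gene lay on its start side (100%, 59 to 100%), against 626 of 978 (64%, 60.9 to 67.0%) of the outside peaks of coding genes in that table. With 7 peaks, the Rnf interval includes this 64%. The 7 belong to Rnf13, Rnf145, Rnf149, Rnf169, Rnf180, Rnf186 and Rnf217. None lay beyond the stop side of a gene. Over the 24 Rnf peaks with a listed start, inside and outside together, the median distance from that start was 24.1 kb, against 18.4 kb over 2362 peaks of such genes. Exons and introns are not given by the gene table and were not told apart.

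**Figure D2:**
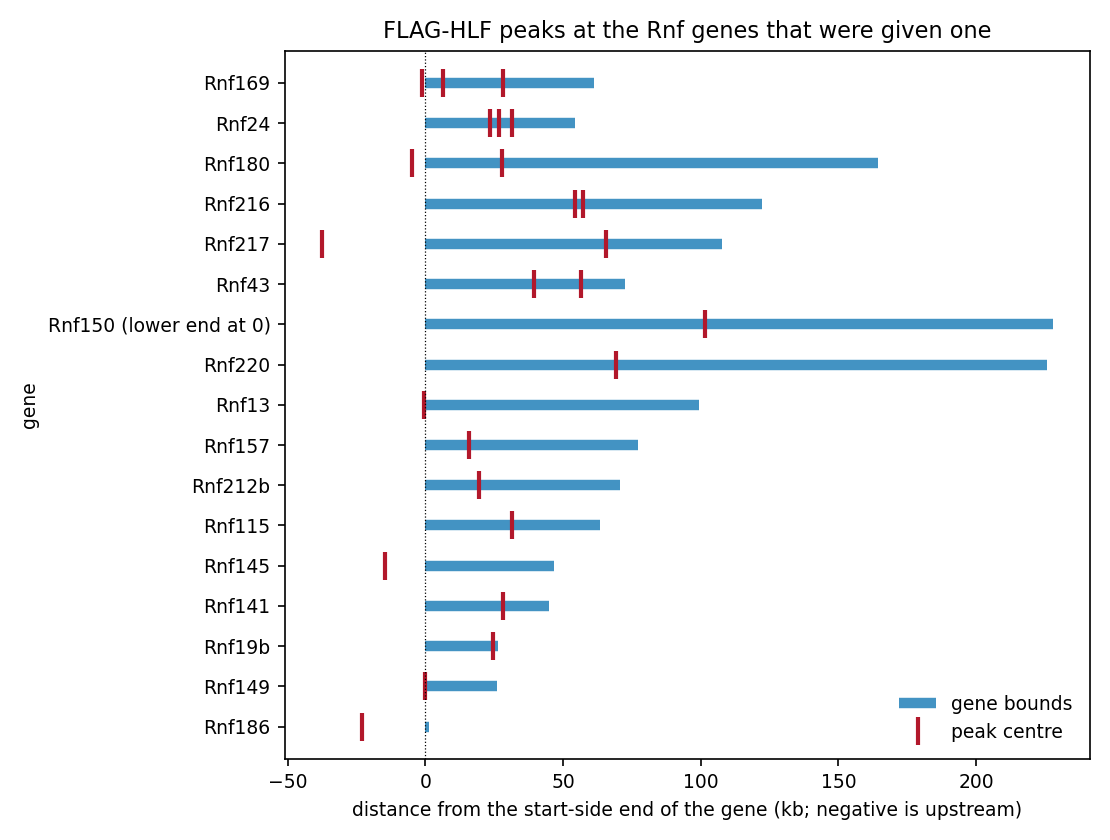
Map of the 17 Rnf genes with a peak, each drawn to scale from its start-side end at 0 (kb); bars are gene bounds and ticks are peak centres. The 7 ticks left of 0 are the upstream peaks, and the 3 ticks of Rnf24 and the pair of Rnf216 sit close together inside the gene. Rnf150, whose strand is not in the promoter table, is drawn from its lower end.

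The role groups used from here on were drawn up after the peaks had been seen, and their small counts, read against the 11.1% of all coding genes with a peak, are a description of where the peaks lay. PA-TM-RING ligases included 4 genes with a peak among 10 (40%, 12.2 to 73.8%), namely Rnf13, Rnf43, Rnf149 and Rnf150, with 5 peaks in all. The 10 genes had a median length of 49.3 kb, against 17.1 kb for all coding genes. Rnf149, which ubiquitylates BRAF in human cells, is a gene of 26.1 kb (chromosome 1, 39551294 to 39577439). Its peak was centred 0.112 kb outside the upper end, which is the start side, and the next coding gene, Cnot11, was 30.7 kb away. Rnf13, an endosomal ligase, covers 99.4 kb (chromosome 3, 57736044 to 57835425), and its peak was centred 0.448 kb before the lower end. These were the peaks nearest to any end of an Rnf gene.

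Rnf43, which removes Frizzled receptors from the cell surface and so dampens Wnt signalling, had 2 peaks inside its 72.5 kb (chromosome 11, 87663087 to 87735539). The first (chr11:87702213-87702612) was centred 2.52 kb downstream of the second start that the promoter table lists for this gene. It also lay within the noncoding gene 1110028F11Rik. The other (chr11:87719507-87719906) lay 17.3 kb further on. Rnf150 is the longest of all 83 genes at 228 kb (chromosome 8, 82863266 to 83091271). Its peak (chr8:82964454-82964853) was 101 kb from the nearest end, the only Rnf peak beyond 100 kb, and it was counted because the gene holds it. No peak beyond 100 kb and outside any gene had an Rnf gene as its nearest coding gene, and the farthest outside peak that was counted lay 37.7 kb away, at Rnf217. The other 6 ligases of the branch, Rnf128, Rnf130, Rnf133, Rnf148, Rnf167 and Rnf215, had no peak.

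RBR ligases had 5 peaks at 3 of 8 genes (37.5%, 8.52 to 75.5%), and this interval includes the 11.1% of all coding genes. The 8 genes had a median length of 75.5 kb. Rnf19b, known as a ligase that natural killer cells need for killing, had 1 peak (chr4:129082650-129083049) centred 1.68 kb inside its upper end, which is the stop side, 24.7 kb downstream of the listed start. Rnf216, a ligase that limits inflammatory receptor signalling, had 2 peaks deep inside its 122 kb (chromosome 5, 142990893 to 143113041). They were centred 2.77 kb apart (chr5:143055616-143056015 and chr5:143058384-143058783), at 57.2 and 54.5 kb from the upper end, where the gene starts. Both also lay in the noncoding gene Gm43380. Rnf217, which controls the iron exporter ferroportin in mice, had 1 peak inside (chr10:31544108-31544507), 65.4 kb downstream of its start, and 1 peak 37.7 kb upstream (chr10:31647202-31647601). The upstream one was nearly as close to another coding gene, Nkain2, at 41.9 kb. Rnf31, the catalytic subunit of the linear ubiquitin complex, Rnf14, Rnf19a, Rnf144a and Rnf144b had none.

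Chromatin and DNA damage ligases had a peak at 1 of 8 genes (12.5%, 0.316 to 52.7%), a share near the 11.1% of all coding genes. The gene was Rnf169, with 3 peaks. Rnf169 binds ubiquitylated histones at DNA double-strand breaks in human cells and limits the recruitment of other repair factors. It spans 61.1 kb (chromosome 7, 99920254 to 99981330) on the minus strand. One peak (chr7:99982321-99982720) was centred 1.19 kb outside its start-side end, the next (chr7:99974714-99975113) 6.42 kb inside and the third (chr7:99952980-99953379) 28.2 kb inside. The outermost centres were 29.3 kb apart. No peak was given to Rnf8 or Rnf168, which mark histones at such breaks, to Rnf2, the catalytic subunit of Polycomb repressive complex 1, to Rnf20 or Rnf40, which ubiquitylate histone H2B, or to the SUMO-directed ligases Rnf4 and Rnf111.

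Other membrane ligases had 7 peaks at 4 of 15 genes (26.7%, 7.79 to 55.1%), again an interval that includes the 11.1% of all coding genes. The 15 genes had a median length of 24.5 kb. Rnf24, which retains TRPC channels inside human cells, had all 3 of its peaks in the middle of its 54.4 kb (chromosome 2, 131298488 to 131352892). Their centres lay 23.5, 26.7 and 31.5 kb downstream of the start, within 7.99 kb of each other (chr2:131329171-131329570, chr2:131326028-131326427 and chr2:131321180-131321579). Rnf180, which acts on monoamine oxidase A in mice, had 1 peak 4.89 kb outside its start-side end (chr13:105299507-105299906) and 1 peak 27.9 kb inside (chr13:105266722-105267121). The nearest other coding gene was over 100 kb from both, and the inside peak also lay in the noncoding gene Gm52064. Rnf145, a sterol-sensing ligase of the endoplasmic reticulum that promotes degradation of HMG-CoA reductase, had 1 peak 14.5 kb upstream of the gene (chr11:44504048-44504447), and its next coding neighbour, Ublcp1, was 33.5 kb away. Rnf186, an intestinal ligase, is only 1.25 kb long and had 1 peak 23.2 kb upstream (chr4:138943719-138944118), with Tmco4 at 28.4 kb. No peak was given to the other 11, among them Rnf5, Rnf185 and Rnf139 of the endoplasmic reticulum.

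Of the 35 genes outside the role groups, 4 had a peak (11.4%, 3.2 to 26.7%), a share near the 11.1% of all coding genes. These 4 genes and Rnf212b of the germ cell group had 1 peak each, all inside the gene. Rnf115, which binds Rab7, had it 31.3 kb downstream of the start (chr3:96758706-96759105). Rnf157, described in neurons, had it 15.8 kb inside its start-side end (chr11:116397409-116397808). Rnf141, described in testis, had it 16.8 kb inside its lower end (chr7:110816033-110816432), and the coding gene Ampd3 was closer, at 3.82 kb. Rnf220, which modifies the corepressor Sin3B, had it 69.3 kb inside its upper end (chr4:117427513-117427912). Among the 3 germ cell genes, Rnf212b, a factor of meiotic crossing over, had it 19.3 kb inside its lower end (chr14:54802470-54802869), while Rnf17 and Rnf212 had none. For Rnf220 and Rnf212b the peak lay 52.3 and 11.5 kb upstream of the start that the promoter table lists, although within the gene bounds, which extend beyond that start. None of Rnf114, Rnf125, Rnf138 and Rnf166, ligases with C2HC fingers and a ubiquitin-binding motif, several of them in antiviral signalling, had a peak.

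Rnf genes with a peak were longer than those without. Their median length was 70.8 kb (range 1.25 to 228 kb, n = 17), against 17.7 kb (1.19 to 125 kb, n = 66) for those without. Over the whole table the 2420 genes with a peak had a median of 45.9 kb, against 15.3 kb for the 19480 without. All 83 Rnf genes had a median of 24.9 kb, against 17.1 kb for all coding genes. Among genes of 30 to 100 kb, 9 of 23 Rnf genes had a peak (39.1%, 19.7 to 61.5%), against 16.1% (15.1 to 17.2%) of coding genes of that length. Above 100 kb the share was 5 of 12 (41.7%, 15.2 to 72.3%), against 27.5%. From 10 to 30 kb it was 2 of 25 (8%, 0.984 to 26.0%), against 9.26%, and up to 10 kb 1 of 23 (4.35%, 0.11 to 21.9%), against 4.23%. The shares were thus close up to 30 kb. At 30 to 100 kb the Rnf interval lay above the share of all coding genes, and above 100 kb it included it. The family was picked with the peak list known and several length classes were compared, so this is a description and not a test. A longer gene has more room for a peak, and how much of the share length accounts for was not tested.

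**Figure D3:**
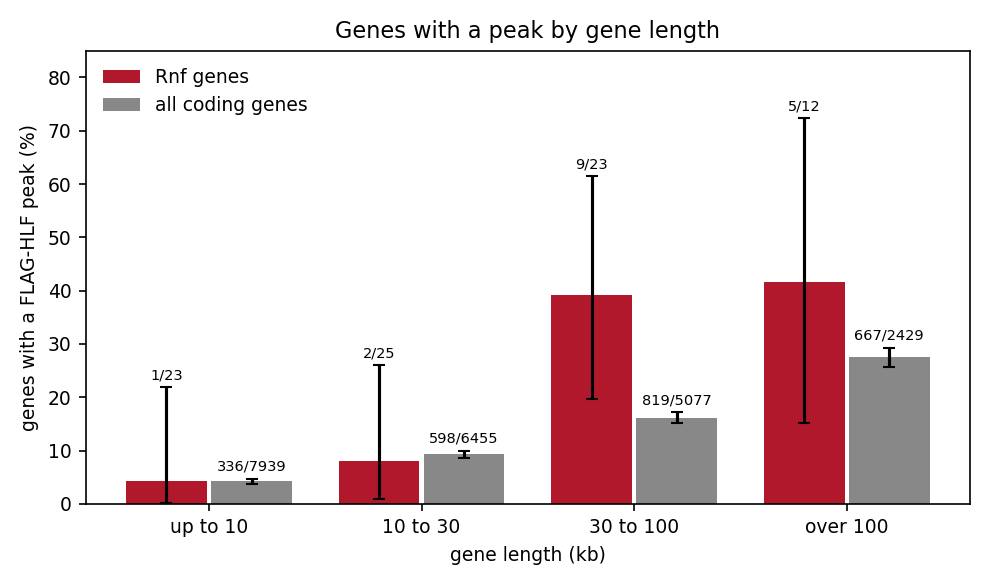
Share of genes with a FLAG-HLF peak (%) in 4 classes of gene length (kb), for Rnf genes (left bars) and all coding genes (right bars), with counts above and 95% exact intervals as error bars. Up to 30 kb the bars are nearly level, and above it the Rnf bars stand at 39.1 and 41.7%, against 16.1 and 27.5%.

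Base composition of the promoters was summarised for members with and without a peak. The median G and C content was 60.3% (range 44.3 to 78.3%) in the 20 listed promoters of Rnf genes with a peak and 60.3% (30.7 to 81.7%) in the 64 of those without, against 56.3% over all coding genes in the table. The median number of CpG steps per 300 bases was 18 with a peak and 21.5 without.

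A further 29 of the 66 Rnf genes without a peak had one within 100 kb that another gene took. The 3 closest were Rnf114, whose nearest peak lay 1.38 kb from its end and inside Spata2, Rnf214, with a peak 2.94 kb away inside Bace1, and Rnf187, with a peak 3.74 kb away that was nearer to Btnl10. Another 6 had one within 20 kb (Rnf31, Rnf122, Rnf181, Rnf207, Rnf208 and Rnf224), of which Rnf208 and Rnf224 shared the same peak. There were 8 at 20 to 50 kb, namely Rnf111, Rnf139, Rnf144a, Rnf166, Rnf185, Rnf215, Rnf222 and Rnf223. The 12 at 50 to 100 kb were Rnf7, Rnf10, Rnf14, Rnf26, Rnf41, Rnf103, Rnf113a2, Rnf123, Rnf126, Rnf135, Rnf182 and Rnf183. For 16 of the 29 the peak lay inside the other gene. The other 37 had no peak within 100 kb. The same count was not made for the 19480 coding genes without a peak, so whether 29 of 66 is a usual share is not known.

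Other genes of the ubiquitin pathway were counted by the same rule in 9 lists with 257 genes, none of them an Rnf gene. A peak was given to 33 of them (12.8%, 9.01 to 17.6%), against 11.1% of coding genes. Among the Ube2 genes, which encode the E2 enzymes that RING ligases dock, 8 of 37 had a peak (21.6%, 9.83 to 38.2%), 1 each. This interval includes the 11.1% of coding genes, and the 37 genes had a median length of 30.4 kb, against 17.1 kb for all coding genes. In Ube2m, an E2 for NEDD8, the peak lay 0.547 kb outside the gene, and in Ube2z and Ube2d3 it lay inside, 0.76 and 2.08 kb from an end. Of the E1 and related activating genes, 1 of 9 had a peak, Atg7 of the autophagy pathway.

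The other families of ligases ran from 5.88 to 25%. The Trim genes had a peak at 4 of 68 (5.88%, 1.63 to 14.4%), at Trim46, Trim11, Trim52 and Trim44. In the mixed list of other RING ligases and their partners 8 of 54 had one (14.8%, 6.62 to 27.1%). There the nearest were Pcgf2, a Polycomb subunit, at 0.237 kb outside, Birc2, an inhibitor of apoptosis, at 0.287 kb inside, Rchy1 at 2.02 kb inside and Siah2 at 17.4 kb outside. Single genes had a peak among the 11 March genes (Marchf7), the 4 Znrf genes (Znrf1) and the 8 cullins (Cul3), and 2 of 10 Traf genes did, Traf5 at 2.08 kb outside and Traf3 at 26.7 kb inside. The deubiquitinases named Usp, which remove ubiquitin, had 10 peaks at 7 of 56 genes (12.5%, 5.18 to 24.1%). Usp32 had 2 inside, Usp7 and Usp12 had 2 each outside, and Usp53 had 1, which lay 2.02 kb inside. The interval of each of the 9 lists includes the 11.1% of all coding genes. Median gene length was 15.9 kb for the Trim, 48 kb for the Usp and 75.2 kb for the March genes, against 17.1 kb for all coding genes.

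**Figure D4:**
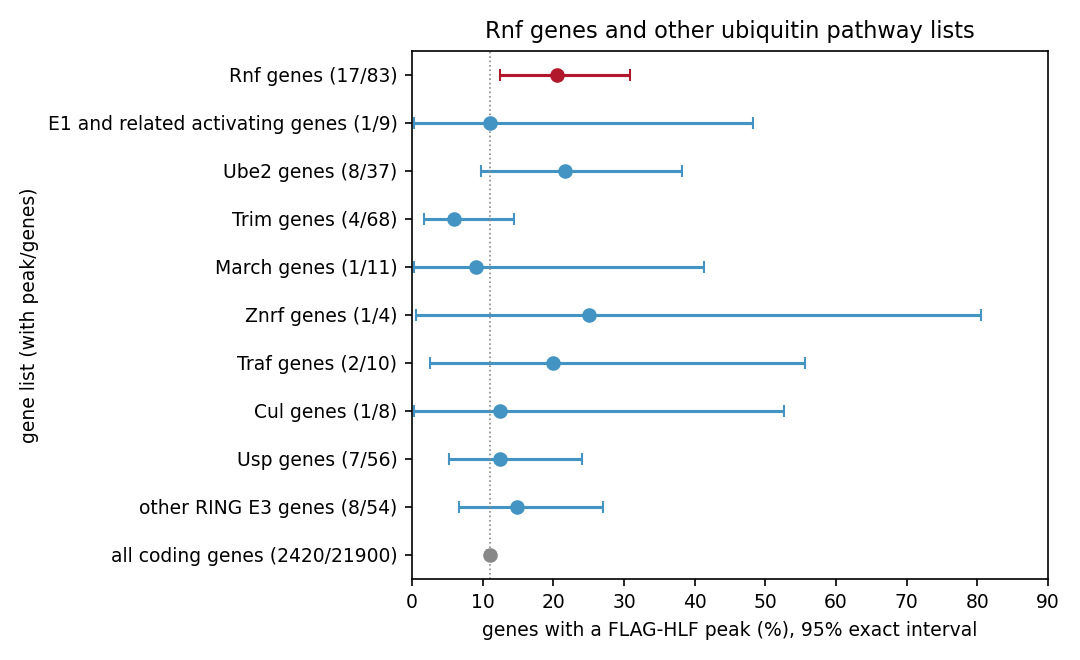
Share of genes with a FLAG-HLF peak (%, points, with 95% exact intervals) for the Rnf genes (top), 9 other ubiquitin pathway lists and all coding genes (bottom; dotted line). Rnf and Ube2 genes stand at 20.5 and 21.6%, Trim genes at 5.88% and all coding genes at 11.1%. The interval of each of the 9 other lists includes the 11.1%, and the intervals of the small lists span most of the axis.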

How the data were processed

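The submitters' processing notes name MACS2, Bowtie2 and bedtools, with mm10 (GRCm38) as the build; which tool did what, and in which version, is not given in the sources. How peaks were thresholded or filtered, how all widths became 400 bases, and whether the GFP library served as control are likewise not given. The deposited list holds positions only, and the authors' unit is a start and an end per peak. The members, lists and role groups were chosen with earlier results of these data known, and the role groups after the peaks had been seen. All Rnf genes with a peak are named, and up to 4 genes per pathway list, those with most peaks first and ties broken by distance. A gene of the Ube2 list that this rule takes is not reported here.

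The centre of a peak was its start plus 200 bases. Where several coding genes held it (23 peaks), the one with the nearest end was taken. Of the Rnf genes, 66 of 83 were found by symbol in the promoter table. The assignment was tested on simulated peaks, planted inside or beyond the upper end of autosomal coding genes that overlap no other. That test did not cover overlapping genes, peaks before the lower end of a gene or the sex chromosomes. A pattern search for the RING fold in proteins, planned at the outset, was not run because no protein sequences were used here. Scripts ran in Python 3.11.15 with pandas 2.3.3 and numpy 2.4.6, intervals came from scipy 1.17.1, and plots from matplotlib 3.10.9.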

Additional observations from a re-analysis of the deposited data

How the results depend on the processing

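Across 7 results, 39 of 44 alternative values stayed within 1.5 times of the reported count or within the 95% interval of the reported share or median. These bounds are wide: peaks given to Rnf genes ran from 18 to 25 and the median distance from 16.8 to 31.3 kb among them. Some of the 44 values could not move. The limit of 50 kb leaves every Rnf value as it was, because no outside Rnf peak lay farther than 37.7 kb. TTACGTAA is 1 of the PAR bZIP words already found in 0 of the 84 promoters, so its 0 was fixed. The number of Rnf genes with a peak was 15 to 17 with the nearest gene end alone, limits of 50 and 20 kb, noncoding genes as competitors, or the whole peak inside the gene. In these settings the share was 18.1 to 20.5% of Rnf genes, against 8.78 to 11.1% of coding genes. By nearest end alone, Rnf141 and Rnf150 lost their peak and Rnf114 and Rnf214 gained one. With noncoding genes, Rnf186 and Rnf216 lost theirs. All 5 values that moved came from parts of the lines of the file, whose order is not explained. Either part holds fewer peaks than the whole list, so counts of genes and peaks from it could only fall or stay level. The first 1576 lines gave 14 Rnf genes (16.9%, against 6.11% of coding genes) and 18 peaks. The later 1577 lines gave 6 Rnf genes (7.23%, against 6.15%) and 7 peaks, with 0% of them within 1 kb of an end, and the cause was not tested. The pathway lists gave 15 genes in the first 1576 lines and 20 in the later ones, against 33 in all (an alternative chosen after seeing the data). Of the 84 Rnf promoters 0 held the palindrome TTACGTAA, against 0.119% of all promoters, and 0 the looser TTACNTAA, against 2.32%, so that few or none would be found at the share of all promoters. The RING pattern with a wider spacing was not run. No paired analysis was possible because each arm has 1 library and the comparison used 1 list.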
